A study of Mus musculus with 6 samples.

Results

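The unfolded protein response and the integrated stress response were examined through 10 genes chosen by name, *Hspa5*, *Hsp90b1*, *Dnajb9*, *Pdia4*, *Sdf2l1*, *Herpud1*, *Xbp1*, *Atf4*, *Ddit3* and *Trib3*. They took up 11 of the 57180 rows of the table, because *Ddit3* was listed under 2 identifiers. The second *Ddit3* row (ENSMUSG00000116429) held 0.87 estimated counts in KO replicate 3 and 0 in every other library, was not tested, and is not used further. All 10 genes were among the 13428 that passed edgeR's expression filter. RNA had been sequenced from osteoclast precursors (OCPs), which are bone marrow-derived macrophages on the way to becoming osteoclasts. There were 3 libraries from wild-type (WT, C57BL/6) mice and 3 from lincRNA-EPS knockout (KO) mice, which the labels call biologically independent. Every culture, WT and KO alike, received M-CSF, a macrophage growth factor, at 40 ng/ml for 24 h, followed by RANKL, the cytokine that starts osteoclast differentiation, at 40 ng/ml for 48 h. No untreated culture and no culture given an agent that stresses the endoplasmic reticulum (ER) was analysed here. The labels give neither the age or sex of the mice nor the way in which the KO allele was made, and the knockout was carried by the whole animal, not by the OCPs alone. The libraries held 17757351 to 19998611 counts. LincRNA-EPS, listed as *Ttc39aos1*, had 20, 37 and 41 counts in the WT libraries and 0 in each KO library.

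Proteins that enter the secretory pathway fold in the ER, and when unfolded protein builds up there the membrane sensors, IRE1, PERK and ATF6, switch on the unfolded protein response. IRE1 splices the *Xbp1* transcript, and ATF6 and spliced XBP1 switch on chaperones and the machinery that removes misfolded protein. PERK and related kinases phosphorylate eIF2α, which lowers general translation but lets *Atf4* be translated, and ATF4 then switches on amino acid, redox and cell death genes. This last arm is called the integrated stress response. Gene counts do not separate spliced from unspliced *Xbp1*, nor do they measure the translation of *Atf4*, so the values below are transcript levels only.

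The genes differed widely in level. To compare genes with each other, normalized counts (CPM after TMM scaling, counts scaled to library size) were divided by the length of the longest annotated transcript in kilobases. In WT OCPs *Hspa5*, which encodes the main ER chaperone BiP, stood at 249 ± 7.75 CPM per kilobase (SD, n = 3), above 98.3% of the genes tested. *Hsp90b1*, the ER form of HSP90 (GRP94), followed at 241 ± 13.8. With this length the levels of *Hspa5* and *Hsp90b1* did not differ beyond the spread between libraries. With the mean transcript length of each gene they did, at 646 ± 20.1 and 480 ± 27.5. *Atf4*, the central transcription factor of the integrated stress response, was at 119 ± 4.49 CPM per kilobase, and *Sdf2l1*, a component of the ER chaperone complex around BiP, was at 88.4 ± 2.73. *Xbp1*, which encodes the transcription factor downstream of IRE1, was at 60.0 ± 1.04, and *Pdia4*, a protein disulfide isomerase, was at 58.7 ± 1.04. The libraries of *Xbp1* and *Pdia4* overlapped on this scale. *Herpud1*, an ER membrane protein of ER-associated degradation, was at 31.0 ± 1.90. The remaining genes were lower, with *Ddit3*, which encodes the pro-apoptotic factor CHOP, at 12.3 ± 1.67, *Dnajb9*, a co-chaperone of BiP (ERdj4), at 8.49 ± 1.13 and *Trib3*, a pseudokinase that restrains ATF4, at 2.15 ± 0.365. *Trib3* was above 27.1% of the genes tested. With the mean transcript length of each gene instead, *Pdia4* (103) and *Xbp1* (99.9) came above *Sdf2l1* (88.4), and *Dnajb9* (14.7) came beside *Ddit3* (14.5), so the order within those groups rests on the length used. In KO OCPs *Hsp90b1* (323 ± 84.9 CPM per kilobase of the longest transcript) had a higher mean than *Hspa5* (291 ± 49.8), with a spread between libraries that covered the difference. With the mean transcript length the order in KO was the other way, at 643 ± 169 for *Hsp90b1* and 754 ± 129 for *Hspa5*.

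**Figure D1:**
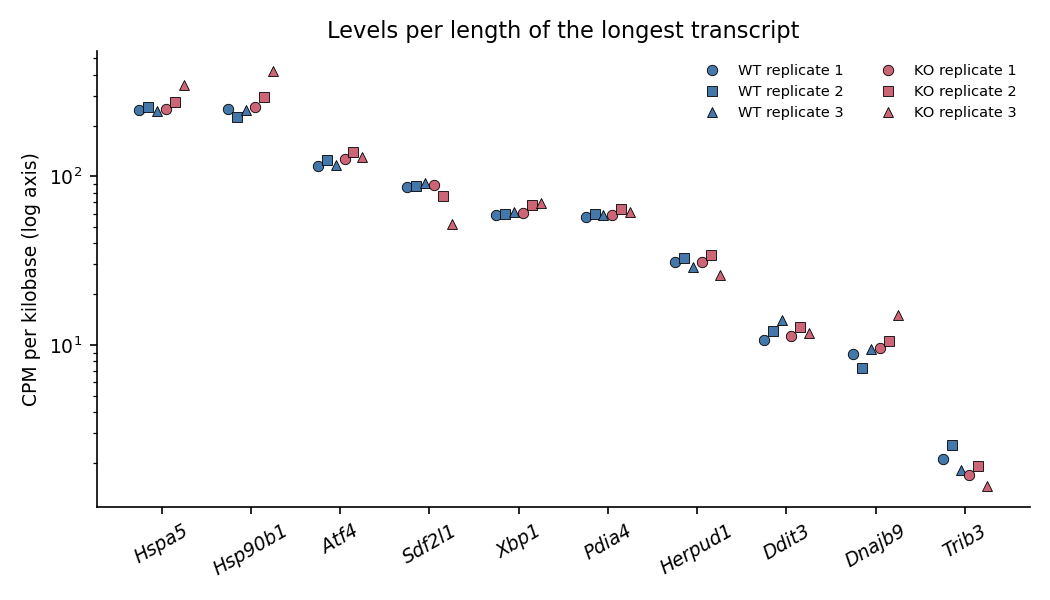
Level of each gene in CPM per kilobase of its longest transcript, on a log axis, with 1 point per library, WT in blue and KO in red. The genes run from *Hspa5* at 244 to 347 CPM per kilobase over all libraries down to *Trib3* at 1.46 to 2.54, and *Sdf2l1*, *Dnajb9*, *Hsp90b1* and *Hspa5* have a KO replicate 3 that stands away from the other libraries.

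The promoters of *Hspa5*, *Hsp90b1* and *Herpud1* are shown because they held the elements through which ATF6 and XBP1 are known to act. The sequences are the 250 bases before the start of each gene, 5′ to 3′ on the strand of the gene, from RefSeq on GRCm38.p6, a build other than the GRCm39 that the labels name for the counts. *Hspa5* lies on the plus strand (chr2:34771840-34772089), *Hsp90b1* on the minus strand (chr10:86705445-86705694) and *Herpud1* on the plus strand (chr8:94386179-94386428). Capitals mark the ER stress response element (ERSE) in *Hspa5* and *Hsp90b1*. In *Herpud1* they mark, from left to right, the composite site bound by ATF4 with C/EBP factors, on the opposite strand, and the ERSE-II element.
Hspa5: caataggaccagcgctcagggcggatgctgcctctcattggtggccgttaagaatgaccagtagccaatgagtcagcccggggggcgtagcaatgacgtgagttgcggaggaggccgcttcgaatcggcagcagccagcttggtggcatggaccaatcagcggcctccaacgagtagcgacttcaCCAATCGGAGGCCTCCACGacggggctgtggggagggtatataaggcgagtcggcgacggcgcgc
Hsp90b1: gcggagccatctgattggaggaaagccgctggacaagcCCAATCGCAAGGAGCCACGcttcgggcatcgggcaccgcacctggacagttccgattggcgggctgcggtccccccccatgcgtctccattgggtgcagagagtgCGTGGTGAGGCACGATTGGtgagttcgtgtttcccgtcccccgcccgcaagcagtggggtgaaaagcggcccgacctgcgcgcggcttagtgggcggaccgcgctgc
Herpud1: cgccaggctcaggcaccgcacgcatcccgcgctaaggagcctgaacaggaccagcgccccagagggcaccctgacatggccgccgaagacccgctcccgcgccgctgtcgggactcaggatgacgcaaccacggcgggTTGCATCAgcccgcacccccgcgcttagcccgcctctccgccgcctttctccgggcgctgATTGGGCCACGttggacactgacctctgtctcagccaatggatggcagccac

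Each motif was searched on both strands of the 300 bases from 250 before to 50 after the start, in 32851 promoters, and all 10 genes had a promoter in the table. The ERSE was taken as CCAAT, any 9 bases and CCACG. It occurred in 39 of the promoters (0.119%), among them *Hspa5*, where it ran from 65 to 47 bases before the start, and *Hsp90b1*, which had it from 212 to 194 bases before the start and, on the opposite strand, from 107 to 89. The 39 promoters belonged to 37 genes, of which 15 were tested. Of these 15, 9 were higher and 6 lower in KO, with a median log2 fold change of 0.091. There were 3 higher and 2 lower at an unadjusted p under 0.05, beside 13.0% and 13.2% of all genes tested, and 2 higher (*Adcy3* and *Ero1b*) and 0 lower after the correction for GC content described below, beside 12.1% and 13.7%. The ERSE-II element (ATTGG, any base, CCACG), which contains CCAAT on the opposite strand, occurred in 12 promoters (0.0365%), among them *Herpud1*, from 52 to 42 bases before the start. The UPR element TGACGTGG was in 222 promoters (0.676%), none of them of the 10 genes. The composite site TGATGNAA was in 1304 promoters (3.97%), including *Herpud1*, from 112 to 105 bases before the start, and *Trib3*, from 14 to 21 bases after it. The letters CCACG alone were in 7 of the 10 promoters, and in 32.8% of all promoters. CCAAT alone was in 8 of the 10, and in 37.4% of all. These are matches of letters within 1 window and are not measured binding.

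Of the 10 genes, 0 passed the limits for differential expression between KO and WT OCPs (adjusted p under 0.01 and a fold change above 1.3), which 1 of the 13428 genes tested did (0.00745%). Their adjusted p-values from edgeR's quasi-likelihood test ran from 0.166 to 0.899. The log2 fold changes ran from -0.35 (*Trib3*) to 0.46 (*Dnajb9*), 6 above and 4 below 0, with a median of 0.10 beside 0.009 for all genes tested. Of the 10, 2 (*Dnajb9* and *Hsp90b1*) were higher in KO at an unadjusted p under 0.05, where 13.0% of all genes tested were, and 0 were lower, where 13.2% of all genes were. In a set of 10 genes, 2 is near that background. The sequenced material was bulk RNA, in which fewer cells of a type and less RNA per cell cannot be told apart.

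Among the ER chaperones and folding enzymes of the 10 genes, the largest differences were in *Hsp90b1* and *Dnajb9*. *Hsp90b1* was at 809.5, 726.1 and 794.2 CPM in WT replicates 1, 2 and 3 and at 826.9, 945.8 and 1349 CPM in KO replicates 1, 2 and 3. The KO libraries lay above all WT libraries, KO replicate 1 by little and KO replicate 3 by far. The log2 fold change was 0.42 (SE 0.17, 95% interval 0.03 to 0.81), with an adjusted p of 0.17 from edgeR. Exons of *Hsp90b1* share 415 bases with the pseudogene *1810014B01Rik* on the opposite strand, whose fuller row held 45.09 to 117.05 estimated counts against 13266 to 26485 for *Hsp90b1*. The libraries were made with a stranded kit, and whether strand was used in the counting is not given in the sources used here.

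*Dnajb9* was at 21.6, 17.8 and 23.2 CPM in WT and at 23.5, 25.9 and 36.8 CPM in KO. The groups did not overlap, but KO replicate 1 was close to WT replicate 3, and KO replicate 3 was again the highest. The log2 fold change was 0.46 (SE 0.18, 95% interval 0.05 to 0.87), with an adjusted p of 0.166. *Hspa5* was at 905.0, 948.2 and 894.5 CPM in WT and at 922.0, 1013 and 1274 CPM in KO. Its groups overlapped, since KO replicate 1 fell below WT replicate 2, and the log2 fold change was 0.22 (SE 0.13, adjusted p = 0.287). *Pdia4* had nearly equal levels, at 138.4, 143.3 and 141.1 CPM in WT and 141.3, 152.7 and 147.3 CPM in KO. Its log2 fold change was 0.06 with a 95% interval of -0.13 to 0.25, so that a change of more than 1.19-fold upward or to less than 0.915-fold lies outside the interval. *Sdf2l1* differed in the other direction. It was at 95.3, 97.3 and 101.2 CPM in WT and at 98.8, 84.9 and 58.1 CPM in KO. KO replicate 1 was within the WT range and KO replicate 3 was by far the lowest library. The log2 fold change was -0.28 (SE 0.17, adjusted p = 0.31).

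*Herpud1*, the member from ER-associated degradation, was at 60.8, 64.0 and 56.6 CPM in WT and at 60.6, 67.0 and 50.6 CPM in KO. The KO libraries held both its highest and its lowest value, and the log2 fold change was -0.03 (SE 0.12, adjusted p = 0.899). The transcription factors differed by little. *Xbp1* was at 125.5, 127.8 and 129.9 CPM in WT and at 129.4, 143.6 and 148.6 CPM in KO, where KO replicates 2 and 3 were above and KO replicate 1 within the WT range. Its log2 fold change was 0.14 (SE 0.09, adjusted p = 0.341). *Atf4* was at 233.6, 250.6 and 236.6 CPM in WT and at 256.7, 282.2 and 261.8 CPM in KO. All 3 KO libraries were above the WT libraries, with KO replicate 2 rather than 3 the highest. Its log2 fold change was 0.15 (SE 0.09, 95% interval -0.05 to 0.35), with an adjusted p of 0.287. *Ddit3* was at 10.4, 11.7 and 13.6 CPM in WT and at 11.0, 12.4 and 11.4 CPM in KO, so that all KO libraries were within the WT range. The log2 fold change was -0.04 with a 95% interval of -0.36 to 0.28. *Ddit3* shares 68 exonic bases with *Mars*, a tRNA charging gene on the opposite strand. *Trib3*, the lowest of the genes, was at 4.26, 5.14 and 3.67 CPM in WT and at 3.44, 3.85 and 2.95 CPM in KO, from 58 to 94 counts per library. KO replicate 2 was above WT replicate 3, the other KO libraries were below all WT libraries, and the log2 fold change was -0.35 (SE 0.19, 95% interval -0.79 to 0.09, adjusted p = 0.263).

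The WT and KO libraries did not overlap, with KO higher, in 3 of the 10 genes (*Dnajb9*, *Hsp90b1* and *Atf4*), beside 16.9% of all genes tested. They did not overlap with KO lower in 0 of the 10, beside 18.8% of all genes. The summed level of the 10 genes was 2392 to 2404 CPM in the WT libraries and 2474, 2731 and 3340.2 CPM in KO replicates 1, 2 and 3, most of it from *Hspa5* and *Hsp90b1*. This sum was not corrected for GC content. With the correction described below, the WT and KO libraries of *Hspa5* overlapped, as did those of *Hsp90b1*.

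**Figure D2:**
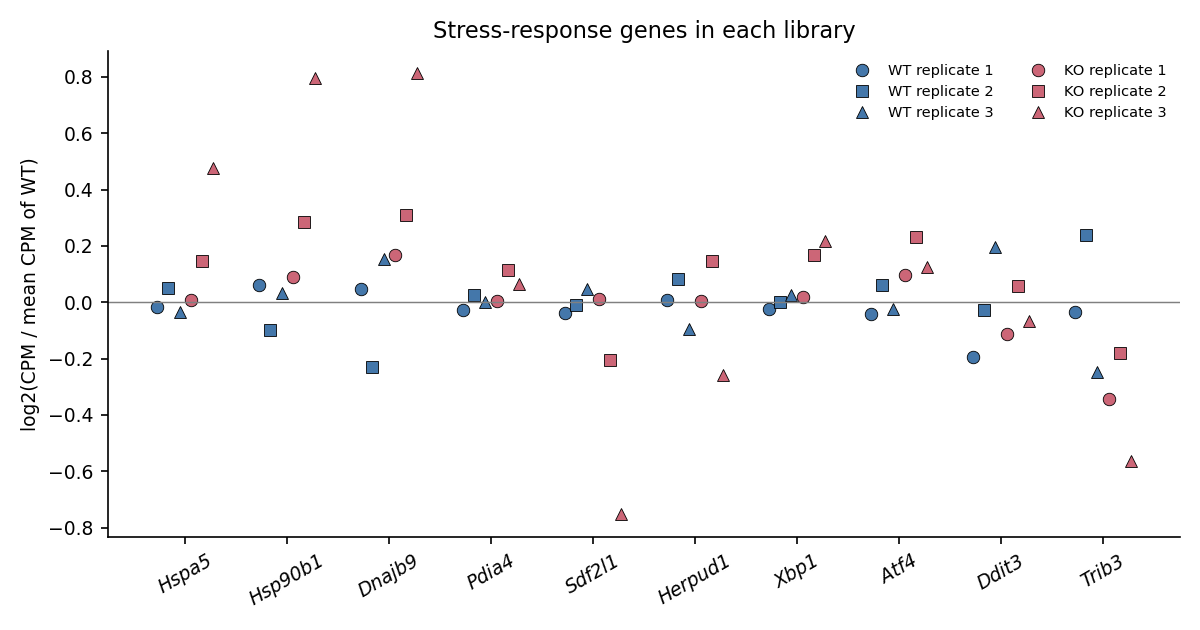
log2 ratio of each library's CPM to the mean CPM of the WT libraries for each gene, with 1 point per library, WT in blue and KO in red, and the shape of the point giving the replicate number. KO replicate 3 (red triangles) is the highest library for *Hspa5*, *Hsp90b1*, *Dnajb9* and *Xbp1* and the lowest for *Sdf2l1*, *Herpud1* and *Trib3*.

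The libraries differed in their trend along the GC content of the transcripts, most in KO replicate 3 and WT replicate 2. Over the 13176 tested genes with a GC value, the deviation of KO replicate 3 from the mean of the libraries had r = -0.586 with GC content. WT replicate 2 had r = 0.545, the other way. In WT replicates 1 and 3 r was 0.183 and 0.219, and in KO replicates 1 and 2 it was 0.043 and -0.094. Every WT library thus had a higher r than every KO library, so trend and genotype cannot be told apart. WT replicate 2 was the lowest library for *Hsp90b1* and *Dnajb9* and the highest for *Trib3*. Several of the genes moved with the trend of KO replicate 3. *Dnajb9* (40.6% GC), *Hsp90b1* (42.1%) and *Hspa5* (45.6%) were 1.49, 1.52 and 1.32 times as high in KO replicate 3 as the mean of KO replicates 1 and 2. *Sdf2l1* (56.7% GC), *Trib3* (58.2%) and *Herpud1* (53.0%) were 0.632, 0.81 and 0.793 times as high. *Xbp1*, also at 53.0% GC, and *Atf4*, at 55.5%, were at 1.09 and 0.971 times, where genes within 1 percentage point of their GC content had a median log2 difference of -0.153 and -0.275. *Ddit3*, at the GC content of *Hspa5*, was at 0.973 times, where the median log2 difference of such genes was 0.161, and *Pdia4* (47.6% GC) was at 1.0 times. Across the 10 genes, GC content had r = -0.841 with the log2 difference between KO replicate 3 and the other KO libraries, and r = -0.805 with their log2 fold changes. Over all genes the same values were -0.549 and -0.51. Genes of 1 library share its depth and base composition and are not independent replicates.

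**Figure D3:**
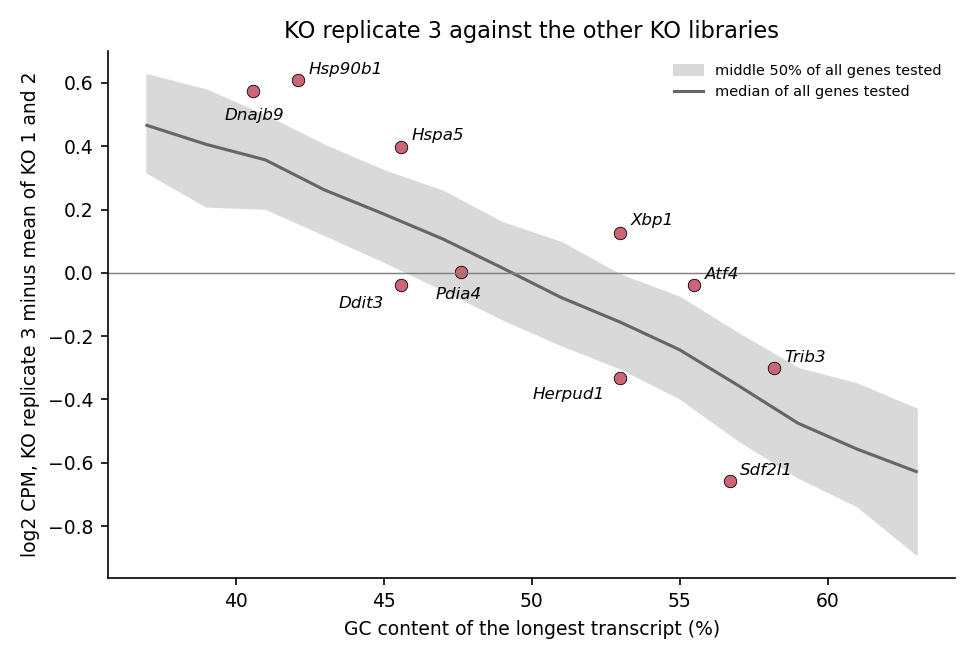
log2 difference in CPM between KO replicate 3 and the mean of KO replicates 1 and 2 against the GC content of the longest transcript in percent, for the 10 genes (red points), with the median (line) and the middle 50% (grey) of all genes tested in bins of GC content. Both the genes and the background run downward, from *Dnajb9* and *Hsp90b1* at 0.58 and 0.61 to *Sdf2l1* at -0.66.

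When each library was corrected for GC content, the genes that stood out among the 10 were others. *Atf4* was then at 227, 218 and 228 CPM in WT and at 253, 286 and 321 CPM in KO, with all KO libraries above all WT libraries. Its log2 fold change became 0.35 (SE 0.09), with an unadjusted p of 0.00273 and an adjusted p of 0.0721, still short of the limit. With KO replicate 3 left out as well, the log2 fold change of *Atf4* was 0.27 (adjusted p = 0.112). *Xbp1* was at 124, 118 and 127 CPM in WT and at 128, 145 and 168 CPM in KO, with a log2 fold change of 0.26 (SE 0.10, adjusted p = 0.136). Its groups no longer overlapped, by a narrow margin in KO replicate 1, and when KO replicate 3 was left out as well its log2 fold change was 0.16 (adjusted p = 0.266). The differences of the low-GC chaperones became smaller, with log2 fold changes of 0.18 for *Dnajb9*, 0.18 for *Hsp90b1* and 0.09 for *Hspa5*. Those of *Sdf2l1* and *Trib3* did too, at -0.07 and -0.05, while those of *Atf4* and *Xbp1*, also rich in GC, became larger. *Herpud1* went from -0.03 to 0.09, *Pdia4* stayed near 0, and *Ddit3* was at -0.16 with an adjusted p of 0.47. With the correction 0 of the 10 genes passed the limits, as 0.0223% of all genes did. At an unadjusted p under 0.05, 2 were higher (12.1% of all genes) and 0 lower (13.7%). The libraries did not overlap in 2 higher (14.7% of all genes) and 0 lower (17.4%). The pair at an unadjusted p under 0.05 without the correction, *Dnajb9* and *Hsp90b1*, and the pair with it, *Atf4* and *Xbp1*, shared 0 genes. The correction removes any difference that follows GC content, whatever its source.

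Leaving out KO replicate 3 gave a like picture for the chaperones without a correction. The log2 fold change was then 0.24 for *Dnajb9*, 0.19 for *Hsp90b1*, 0.08 for *Hspa5* and -0.09 for *Sdf2l1*, with adjusted p-values from 0.305 to 0.649 by edgeR. *Atf4* and *Pdia4* hardly depended on it, at 0.17 and 0.06. At an unadjusted p under 0.05 there were 0 of the 10 genes without KO replicate 3, 0 without WT replicate 1 or WT replicate 2, 1 without WT replicate 3 (*Dnajb9*) and 4 without KO replicate 1 (*Hspa5*, *Hsp90b1*, *Dnajb9* and *Sdf2l1*). In those fits the share of all genes at an unadjusted p under 0.05, in either direction, was 19.3% without KO replicate 3, 20.3%, 11.2% and 19.6% without WT replicates 1, 2 and 3, and 33.2% without KO replicate 1.

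**Figure D4:**
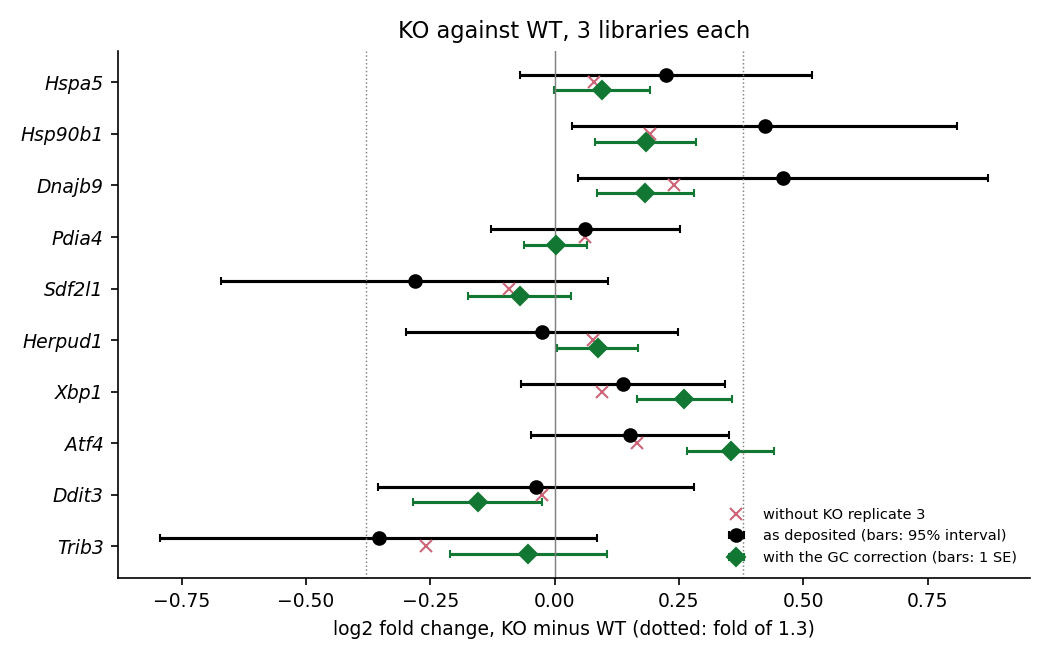
log2 fold change of each gene, KO minus WT, as deposited (black, bars giving the 95% interval), with the GC correction (green, bars giving 1 SE) and without KO replicate 3 (red crosses). With the correction *Hsp90b1* and *Dnajb9* move from 0.42 and 0.46 to 0.18 each and *Atf4* moves from 0.15 to 0.35, and the dotted lines mark a fold change of 1.3.

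The other genes of these pathways were described from lists of known members, and 0 genes of any list passed the limits. Among the sensors and their signal control, 14 genes were tested, 7 with a higher and 7 with a lower level in KO and a median log2 fold change of -0.02. Among them, 1 was higher and 3 were lower at an unadjusted p under 0.05, beside 13.0% and 13.2% of all genes, and with the GC correction 3 were higher and 3 lower, beside 12.1% and 13.7%. They included *Atf6b*, a relative of ATF6 (-0.48, adjusted p = 0.147), *Ern1*, which encodes IRE1 (-0.34, adjusted p = 0.156), and *Eif2s1*, which encodes eIF2α (0.43, adjusted p = 0.156). *Ern1* was at 65.2 to 70.4 CPM in WT and 46.4 to 62.6 CPM in KO, and its log2 fold change was -0.30 with the GC correction. That of *Atf6b* became -0.08 and that of *Eif2s1* 0.17.

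Of 20 other ER chaperones and folding enzymes, 14 were higher and 6 lower, with a median of 0.09. At an unadjusted p under 0.05 there were 2 higher, *Pdia3* (0.33) and *Ero1b* (0.45), and 1 lower, *Hyou1* (-0.29), beside 13.0% and 13.2% of all genes, and with the GC correction 4 were higher and 1 lower, beside 12.1% and 13.7%. *Pdia3* and *Ero1b* were at 0.24 and 0.28 with the correction, and without KO replicate 3 at 0.18 and 0.24, where neither was at an unadjusted p under 0.05. PDIA3 and ERO1B help to form disulfide bonds, and HYOU1 is an exchange factor of BiP. *Hyou1* was at 238 to 282 CPM in WT and 202 to 217 CPM in KO and kept its direction with the correction (-0.19). In ER-associated degradation 19 of 20 listed genes were tested, 9 higher and 10 lower, with a median of -0.01. *Os9* (-0.33), a lectin, and *Syvn1* (-0.38), the ubiquitin ligase HRD1, were lower at an unadjusted p under 0.05, and *Ufd1* (0.26), a cofactor in the extraction of substrates, was higher. The list thus had 1 higher and 2 lower of 19, beside 13.0% and 13.2% of all genes. After the correction *Os9*, *Syvn1* and *Ufd1* were at -0.09, -0.15 and 0.18, each at an unadjusted p above 0.05. *Sel1l* (-0.17), an adaptor of that ligase named after its value was seen, was the 1 gene of the list below it. That made 0 higher and 1 lower, beside 12.1% and 13.7% of all genes. *Erlec1*, another lectin, had the largest upward value in that list (0.46, adjusted p = 0.267). It was at 15.7, 18.2 and 30.9 CPM in KO, and without KO replicate 3 its log2 fold change was 0.10.

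The genes of translocation into the ER and of the secretory pathway had a higher median than the other pathway lists described here. Of 20 tested, 15 were higher and 5 lower, with a median log2 fold change of 0.27, against 0.009 for all genes. At an unadjusted p under 0.05, 7 were higher and 0 lower, where 13.0% and 13.2% of all genes were, and the libraries did not overlap in 9 with KO higher and in 1 with KO lower, beside 16.9% and 18.8% of all genes. *Sec11c* (0.56) and *Spcs3* (0.43), both of the signal peptidase, and *Ssr4* (0.43), of the translocon-associated complex, had the lowest p-values, with adjusted p-values of 0.147 to 0.149. With the GC correction they were at 0.47, 0.14 and 0.51, with *Spcs3* then at an unadjusted p above 0.05. *Ssr4* was at 64.6 to 80.3 CPM in WT and 90.8 to 111 CPM in KO. *Sec61a1*, which encodes the channel itself, had a log2 fold change of -0.19, and of -0.05 with the GC correction. With the GC correction the median was 0.15, with 6 higher and 0 lower at an unadjusted p under 0.05 (12.1% and 13.7% of all genes), and without KO replicate 3 it was 0.20. Their median GC content was 45.6%, below the 49.2% of all genes tested. In 11 of the 20, KO replicate 3 was the highest library, where it was in 33.8% of all genes.

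The targets of ATF4 were described in a pair of lists. Of 27 genes of amino acid supply and tRNA charging, 16 were higher and 11 lower, with a median of 0.04, and at an unadjusted p under 0.05, 5 were higher and 0 lower (13.0% and 13.2% of all genes). *Asns*, asparagine synthetase and a well known target of ATF4, was at 47.2 to 55.8 CPM in WT and 57.6 to 70.1 CPM in KO (0.36, adjusted p = 0.147). The tRNA charging genes *Nars* and *Gars* had log2 fold changes of 0.33 and 0.29. With the GC correction 7 of the 27 were higher and 1 lower at an unadjusted p under 0.05 (12.1% and 13.7% of all genes), and the median was 0.11. The 1 lower gene was *Slc7a11*, at -0.20 without and -0.45 with the correction. Its corrected p by edgeR was 0.000373 (adjusted p = 0.0477), the lowest of the list. Without the correction *Cth*, of cysteine synthesis, had the largest upward value (0.38) at 8 to 21 counts per library. *Slc3a2*, a subunit of amino acid transporters, then had the most negative (-0.24), and it was at -0.11 with the correction. Of 14 tested regulators and stress outputs of ATF4, 4 were higher and 10 lower, with a median of -0.11, and at an unadjusted p under 0.05, 1 was higher and 5 were lower (13.0% and 13.2% of all genes). The corrected median was -0.02, with 2 higher and 3 lower (12.1% and 13.7% of all genes).

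*Atf3*, a stress-induced transcription factor, was at 80.5, 83.4 and 76.5 CPM in WT and 54.8, 59.7 and 56.9 CPM in KO. The libraries of the genotypes were well apart, and KO replicate 3 was between the other KO libraries. Its log2 fold change was -0.49 (SE 0.09), with an adjusted p of 0.136 by edgeR, 0.0488 with the GC correction and 0.000674 by DESeq2, which is past the limits. *Atf5* (-0.60), *Bbc3* (-0.65), which encodes PUMA, and *Cebpb* (-1.45) were also lower at an unadjusted p under 0.05. *Cebpb*, which encodes a partner of ATF4, has 67.2% GC and was at 111 to 155 CPM in WT and 70.9, 61.8 and 8.55 CPM in KO. With the GC correction *Atf5* was at -0.15 and *Bbc3* at -0.0029, while *Cebpb* was at -0.90. Without KO replicate 3 *Cebpb* was at -0.96, and at -0.53 with the GC correction as well. *Nupr1* was at 4.93 to 7.24 CPM in WT and 6.82 to 9.22 CPM in KO (0.44, adjusted p = 0.181).

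Heat shock genes, which answer to unfolded protein outside the ER, were set beside the ER genes. Most of the list act in the cytosol, and *Hspd1* and *Hspe1* encode mitochondrial chaperones. Of 14 listed, 13 were tested, 9 higher and 4 lower, with a median of 0.075, and at an unadjusted p under 0.05, 5 were higher, among them *Hspd1* and *Hspe1*, and 1 was lower (13.0% and 13.2% of all genes). *Dnaja1* (0.53), *Hspd1* (0.52), *Hsp90aa1* (0.44) and *Chordc1* (0.57) were higher, with adjusted p-values of 0.147 to 0.165, and *Hspa1a* (-0.85) was lower at 11.48 to 37.03 estimated counts per library. *Hspa1a* shares near-identical sequence with *Hspa1b*, so its counts are uncertain. After the GC correction 4 were higher and 0 lower at an unadjusted p under 0.05 (12.1% and 13.7% of all genes), with *Hspd1* at 0.43, *Dnaja1* at 0.28, *Hsp90aa1* at 0.26, *Chordc1* at 0.11 and *Hspa1a* at -0.50. The genes that the deposited table pairs with the KEGG pathway of protein processing in the ER were spread around 0, with 83 higher and 66 lower of 149 tested and a median of 0.06. Of these, 20 were higher and 13 lower at an unadjusted p under 0.05, beside 13.0% and 13.2% of all genes. Of 8 tested genes that it pairs with the Reactome term for the unfolded protein response, 5 were higher and 3 lower. At an unadjusted p under 0.05, 1 was higher and 2 were lower, beside 13.0% and 13.2% of all genes.

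**Figure D5:**
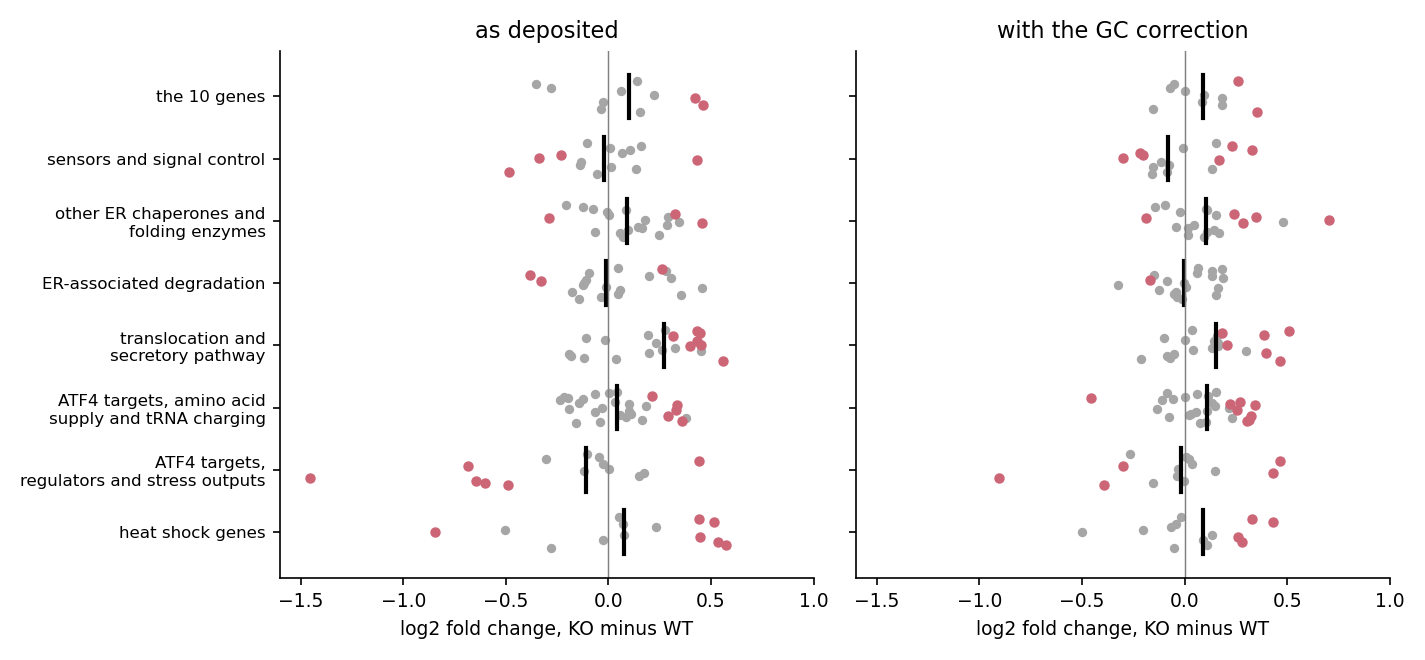
log2 fold change between KO and WT of each tested gene (points), by list, as deposited (left) and with the GC correction (right), with red points for an unadjusted p under 0.05 and black bars for the median of a list. The median of translocation and secretory genes goes from 0.27 to 0.15 with the correction, and that of the 10 genes from 0.10 to 0.09.

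The cell type was checked by markers in the same libraries. All 7 macrophage markers and all 10 osteoclast markers were tested. Summed macrophage markers were at 16506 to 17678 CPM in WT and 14897 to 17723 CPM in KO. Most of this sum came from *Lyz2*, and the log2 fold changes of all 7 were below 0, with a median of -0.25 (-0.11 with the GC correction) and 3 at an unadjusted p under 0.05, where 13.2% of all genes were lower. Summed osteoclast markers were at 5087 to 5515 CPM in WT and 6838 to 7246 CPM in KO. Of the 10 osteoclast markers 9 were higher, as 6848 of the 13428 genes tested were. At an unadjusted p under 0.05, 6 of the 10 were higher and 0 lower, beside 13.0% and 13.2% of all genes. With the GC correction 7 were higher and 0 lower, beside 12.1% and 13.7%, and 1 passed the limits, as 0.0223% of all genes did. Plasma cells and neutrophil precursors carry much ER or granule protein. Of 8 neutrophil markers 7 were tested, 5 of them higher in KO, with sums of 1247 to 1404 CPM in WT and 1662 to 1999.9 CPM in KO, and *Ly6g* was at 0 to 0.25 CPM. The higher sums in KO came mostly from *S100a8*, *S100a9* and *Ngp*, while the precursor markers *Mpo* (159.6 to 234.9 CPM in WT, 118.8 to 157.5 CPM in KO) and *Elane* (57.2 to 62.7 CPM in WT, 35.5 to 56.1 CPM in KO) were lower in every KO library. Libraries did not overlap with KO lower in 18.8% of all genes tested. After the GC correction this held for 0 of the 7 markers, beside 17.4% of all genes. At an unadjusted p under 0.05, 4 of the 7 were higher and 1 was lower, beside 13.0% and 13.2% of all genes. With the GC correction 5 were higher and 0 lower, beside 12.1% and 13.7%. Of 6 plasma cell markers, 4 (*Jchain*, *Mzb1*, *Tnfrsf17* and *Derl3*) were at or near 0, and *Sdc1* and *Prdm1* made up the sum of 199.7 to 234.5 CPM in WT and 236.0 to 250.2 CPM in KO. Summed B cell, T cell and stromal markers were each at 20.8 CPM or less in every library, and erythroid markers at 0.682 CPM or less. The part of the osteoclast and neutrophil markers in the values of the 10 genes was not tested.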

How the data were processed

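The study's RNA libraries were made with a stranded mRNA kit and sequenced on an Illumina instrument. The authors deposited 1 table of estimated counts (expected counts) per gene, not normalized, in which 25.14% to 26.59% of the detected values in a library were not whole. Their processing notes name fastp, HISAT2, StringTie, RSEM and GRCm39, and the role and version of each are not given in the sources used here. The authors' group means in the table were not used, and each of the 6 libraries was grouped by the genotype in its labels.

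Estimated counts were rounded, genes were kept by filterByExpr and scaled by TMM, and KO was compared with WT by edgeR 4.0.16 (glmQLFit with legacy = FALSE, glmQLFTest, R 4.3.3), with Benjamini-Hochberg adjustment over all 13428 genes tested. The common biological coefficient of variation was 0.142. SE and 95% intervals come from that fit. Levels were taken as measured from 3 counts upward (0.15 to 0.173 CPM), and this floor covers counting error only. The p-values measure the spread between these cultures. With 3 libraries per genotype the exact permutation test has 0.1 as its smallest p, so none is given.

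The GC correction fitted a natural spline with 5 degrees of freedom per library and entered it as offsets. GC content and transcript length came from GENCODE M21 on GRCm38, matched by identifier for 51884 of 57180 genes. Promoters came from RefSeq on GRCm38.p6. Alternatives were other scalings, filters and limits, DESeq2 1.42.0, limma-voom (limma 3.58.1), the replicate number as a block and each library left out. The fits were tested on simulated counts. The genes, lists and limits were chosen with earlier results of these data known. The text names, for each other pathway list but not for the KEGG and Reactome terms, the 3 genes with the lowest p and those with the largest increase and decrease. *Adcy3*, *Hspe1*, *Sel1l* and *Slc7a11* were named after their values were seen. DESeq2 gave no adjusted p for *Trib3*, *Cth* and *Hspa1a*.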

Additional observations from a re-analysis of the deposited data

How the results depend on the processing

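Of the 10 genes, 0 passed the limits under any alternative run, including an adjusted p under 0.05 with no fold limit. Across all genes, 0 were higher and 1 lower past the limits. DESeq2 gave 54 higher and 72 lower, and the GC correction 1 higher and 2 lower. The GC correction without KO replicate 3, chosen after the data were seen, gave 2 higher and 2 lower. When single libraries were omitted, the lower genes ranged from 0 (without WT replicate 2, WT replicate 3 or KO replicate 2) to 2 (without KO replicate 1). The genes of the 10 at an unadjusted p under 0.05, 2 in all libraries, ranged from 0 (without WT replicate 1, WT replicate 2 or KO replicate 3) to 4 (without KO replicate 1), with 1 without WT replicate 3. With the GC correction and without KO replicate 3 there was 1, *Atf4*, beside 20.9% of all genes. The genes whose groups did not overlap with KO higher were 5 with library size alone in place of TMM, and 3 to 6 with a library left out (5 without WT replicate 2, 6 without KO replicate 1), beside 16.8%, 19.5% and 26.8% of all genes in those 3 fits. Those with KO lower ranged from 0 to 1, with 1 without WT replicate 3, KO replicate 1 or KO replicate 2 (22.9%, 27.3% and 22.1% of all genes).

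The direction of *Herpud1* turned with the GC correction (0.0864), with that correction and the replicate block (0.0835), and with it and without KO replicate 3 (0.1401), and ranged from -0.1215 to 0.0774 with a library left out. *Ddit3* ranged from -0.1277 to 0.069 with a library left out. With the GC correction and without KO replicate 3, *Sdf2l1* was at 0.0238, *Erlec1* at -0.0407 and *Chordc1* at -0.017. The cause of these turns was not tested. All other members kept their direction under every alternative run.

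Neither the labels nor the study's text say that same-numbered cultures were handled together, and the deviations of same-numbered libraries had correlations of -0.2, 0.065 and 0.152. With the replicate number as a block, 0 genes were higher and 1 lower past the limits, and 2 of the 10 were at an unadjusted p under 0.05, beside 26.5% of all genes. The block gave log2 fold changes of 0.39 for *Hsp90b1* (adjusted p = 0.149) and 0.44 for *Dnajb9* (adjusted p = 0.107), and it changed no call. Of the 10 genes *Trib3* had the fewest counts, at 58 to 94 counts per library.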
